A study of Mus musculus with 16 samples.

Results

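Cells at day 12 of chemical reprogramming were compared with established induced pluripotent stem cells (iPSC) by the places where their chromatin was open. Every peak of the day 12 list and of the iPSC list on chromosomes 1 to 19, X and Y was taken, and peaks that overlapped by at least 1 bp were merged into 67559 regions, out of 165616 regions when all 8 lists of the series are merged. A region listed at both stages is called kept, a region of the iPSC list alone gained, and a region of the day 12 list alone lost. These words say only in which list a region stands. Both stages came from fibroblasts (MEF) of E13.5 embryos labelled 129XOG2, at passages 1 to 3. The day 12 cells are labelled a reprogramming intermediate and had been in reprogramming medium, and the iPSC were held on feeder cells with LIF, CHIR99021 and PD0325901. As background, the OG2 strain has a GFP transgene driven by sequences of Pou5f1. The study has 16 samples in 8 stages with 2 samples each, and 1 peak list stands for each stage, so no spread between samples and no test is available. Intervals in brackets are exact 95% binomial intervals and cover counting error only.

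ATAC-seq uses the Tn5 transposase to place sequencing adapters in DNA that is not covered by nucleosomes, so a peak marks an open promoter or a candidate regulatory element. Promoters rich in CpG tend to be open in most cell types, while elements far from genes differ between cell types. Naive pluripotent cells of the mouse rely on Pou5f1, Sox2 and Nanog, backed by Esrrb, Klf4, Nr5a2, Tfcp2l1 and Prdm14. Chemical reprogramming of mouse fibroblasts has been described to pass through a state with genes of extraembryonic endoderm, such as Sox17, Gata4 and Foxa2.

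The start sites of naive pluripotency genes fell into every class, and the 200 bases before 6 of them are printed because the account below turns on them. All are from RefSeq on GRCm38.p6 (its chromosomes are those of mm10) and read 5′ to 3′ on the strand of the gene. Capitals mark, on either strand, the GC box (GGGCGG), the CCAAT box (CCAAT), the POU octamer core (ATGCAAA), SOX (ACAATGG), the nuclear receptor half-site of ESRRB (AAGGTCA) and KLF (GGGTGTG). The first is Zfp42, kept (chr8:43307010-43307209, minus strand). Nanog (chr6:122707289-122707488, plus strand), Tdgf1 (chr9:110946159-110946358, minus strand) and the inner start of Nr5a2 (chr1:136953631-136953830, minus strand) were gained. The outer start of Nr5a2 (chr1:136960449-136960648, minus strand) and Klf4 (chr4:55532476-55532675, minus strand) were lost.
Zfp42: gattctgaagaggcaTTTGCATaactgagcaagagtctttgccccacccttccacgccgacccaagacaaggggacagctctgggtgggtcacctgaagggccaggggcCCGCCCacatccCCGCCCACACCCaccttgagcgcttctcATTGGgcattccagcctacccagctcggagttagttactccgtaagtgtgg
Nanog: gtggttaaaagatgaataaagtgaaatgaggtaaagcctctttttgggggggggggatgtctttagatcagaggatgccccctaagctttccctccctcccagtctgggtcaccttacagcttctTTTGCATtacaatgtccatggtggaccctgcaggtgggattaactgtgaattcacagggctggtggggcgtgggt
Tdgf1: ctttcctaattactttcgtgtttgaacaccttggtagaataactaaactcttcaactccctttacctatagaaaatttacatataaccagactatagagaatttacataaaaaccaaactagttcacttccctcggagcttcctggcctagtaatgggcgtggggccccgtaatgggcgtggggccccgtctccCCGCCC
Nr5a2 inner start: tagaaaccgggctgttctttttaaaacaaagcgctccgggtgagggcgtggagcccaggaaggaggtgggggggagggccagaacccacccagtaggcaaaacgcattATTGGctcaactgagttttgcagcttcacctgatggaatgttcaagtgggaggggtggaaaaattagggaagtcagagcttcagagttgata
Nr5a2 outer start: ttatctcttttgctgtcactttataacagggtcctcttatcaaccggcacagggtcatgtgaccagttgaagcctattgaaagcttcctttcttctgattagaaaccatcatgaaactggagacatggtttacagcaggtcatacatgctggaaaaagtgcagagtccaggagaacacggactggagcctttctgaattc
Klf4: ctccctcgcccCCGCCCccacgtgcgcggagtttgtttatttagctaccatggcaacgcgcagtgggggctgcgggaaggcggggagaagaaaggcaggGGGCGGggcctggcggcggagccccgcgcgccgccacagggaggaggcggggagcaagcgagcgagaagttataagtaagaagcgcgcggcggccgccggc

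The Nanog window held a POU octamer core beginning 75 bases before the start, and Zfp42 held one at 185. Zfp42 also held GC boxes at 91 and 79, a KLF match at 74 that shares 1 base with the nearer GC box, and a CCAAT box at 51. Tdgf1 held a GC box 6 bases before its start, the inner Nr5a2 start a CCAAT box at 92, and Klf4 GC boxes at 189 and 101, while the outer Nr5a2 start held none of these letters. Among 21263 RefSeq promoter windows cut to the same 200 bases, 40.8% held a GC box, 31.1% a CCAAT box, 5.99% KLF, 2.99% the POU octamer core, 2.73% the ESRRB half-site and 1.85% SOX. Klf4 had 25 CpG in its 200 bases, Zfp42 and Tdgf1 7 each, the Nr5a2 starts 5 (inner) and 2 (outer), and Nanog 1. A match is a description of letters, not a site.

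Kept regions lay mostly near gene ends and the others mostly away from gene ends. Of the 67559 regions, 13273 (19.6%) were kept, 36186 (53.6%) gained and 18100 (26.8%) lost. Kept regions were thus 26.8% of the iPSC regions and 42.3% of the day 12 regions. Near a gene end, meaning within 1 kb of either end of the span of any protein-coding gene, lay 60.4% (59.5 to 61.2) of the kept, 12.7% (12.3 to 13.0) of the gained and 5.10% (4.78 to 5.43) of the lost regions. Gene bodies held 20.9%, 43.9% and 41.9% of the 3 classes, and the space between genes 18.7%, 43.5% and 52.99%. The median distance from the middle of a region to the nearest gene end was 445 bp for kept, 20320 bp for gained and 35330.5 bp for lost regions. More than 100 kb from any gene end lay 5.40% of kept, 17.5% of gained and 28.0% of lost regions.

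**Figure D1:**
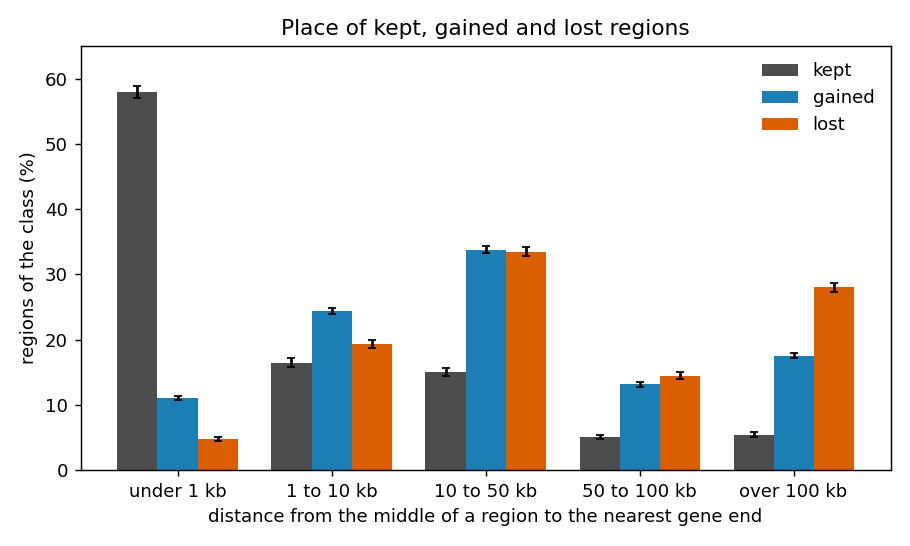
Share of kept, gained and lost regions (vertical axis, percent of the class) by distance from the region's middle to the nearest protein-coding gene end (horizontal axis), with 95% binomial intervals as bars. Kept regions stand at 57.9% under 1 kb, and lost regions reach 28.0% over 100 kb.

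How often a day 12 region was also found in iPSC followed the number of fragments behind it. The deposited fold and p-value of a peak give back its summit pileup, the number of fragments over the summit. The day 12 list was the shallowest of the series, with a median summit pileup of 7 and a background pileup (the lowest expected by chance in the list) of 0.248, against 21 and 1.90 in iPSC. Its 31865 peaks covered 10.4 Mb with a median width of 264 bp, and the 49468 iPSC peaks covered 34.5 Mb with a median of 609 bp. Day 12 peaks with a pileup of 3, the lowest there, were found in iPSC in 7.58% (6.88 to 8.32) of cases. The share was 27.2% at a pileup of 5, 57.2% at 8 to 10, 77.3% at 16 to 20 and 93.9% (91.6 to 95.7) at 31 to 50. Lost regions had a median pileup of 5 and kept regions 11 at day 12. In iPSC, gained regions had a median pileup of 18 and kept regions 36.

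The order by score went with sharing in both lists, here cut into 10 equal steps. Of the 3187 best-scored day 12 peaks 84.8% (83.6 to 86.1) were in the iPSC list, and of the 3186 last 8.22% (7.29 to 9.23). For the first and last step of iPSC peaks, found at day 12, the values were 70.4% (69.1 to 71.7) and 5.16% (4.56 to 5.81). Of the best 1000 peaks, 91.7% of day 12 and 84.6% of iPSC were shared.

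**Figure D2:**
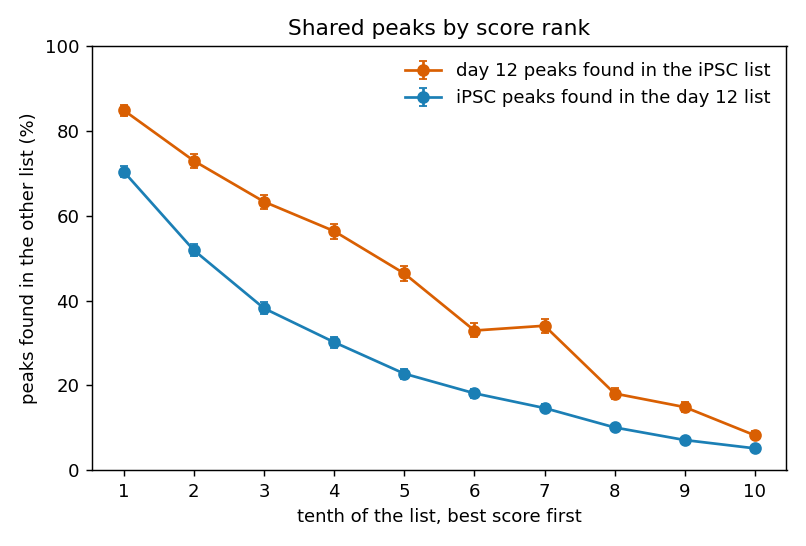
Share of peaks found in the other list (vertical axis, percent) by step of 10% of the list in order of score (horizontal axis), with 95% binomial intervals, for day 12 peaks and iPSC peaks. The day 12 share goes from 84.8% to 8.22%, the iPSC share from 70.4% to 5.16%.

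The excess of gained over lost regions hung on depth and list length. With both lists at 31865 peaks, 11813 regions were kept, 20046 gained and 19576 lost. Equal lists bring the total gained and lost counts close together by construction. When the iPSC pileups and backgrounds were scaled by 0.131 to the background of day 12, 16058 iPSC peaks still passed the weakest p-value of the day 12 list, and 8179 regions were kept, 7879 gained and 23331 lost. The net direction therefore turned, and neither net count can be read as opening or closing. The scaling rests on the backgrounds of 0.248 and 1.90 alone. Median pileups of kept regions, 11 at day 12 and 36 in iPSC, differed by a smaller factor. Scaled depth is thus strict on iPSC peaks, and how much of the turn follows from this setting was not tested. The place of kept regions held: 63.8% lay near a gene end at equal length and 69.2% at scaled depth. Lost regions near a gene end were 7.09% and 14.05%, and gained regions 13.9% and 13.1%, so at scaled depth lost were no longer below gained.

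The earlier lists, which the classes did not use, separate better-supported regions from the rest. The day 10 list held 27.3% (26.6 to 27.9) of the lost regions and the day 8 list 20.7% (20.1 to 21.3), against 5.29% to 10.6% in the lists of days 0 to 6. Lost regions that stood in no other list numbered 11919 (65.9%), with a median pileup of 4. The 3292 lost regions listed at both day 8 and day 10 had a median pileup of 9 and a median fold of 6.26, and 12.8% (11.7 to 13.98) lay near a gene end. Of these, 2072 (62.9%) were in none of the lists of days 0 to 6, and 696 (21.1%) were in the fibroblast list of day 0. They are called supported lost regions below, a set defined after the data had been seen.

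Gained regions were spread more evenly over the earlier lists. The day 0 list held 18.5% of them, the day 2 list 28.7%, the day 8 list 19.9% and the day 10 list 21.8%, and 21543 (59.5%) stood in the iPSC list alone. At day 8 or day 10, 9682 (26.8%) were already listed, and 2549 of these passed at scaled depth. Whether their absence at day 12 was a gap between stages or came from the shallow day 12 list was not tested. Of the 7879 gained regions that passed at scaled depth, 5330 were absent at days 8 and 10, and 4471 of these (83.9%) were also absent at days 0 to 6. These 5330, called supported gained regions below and likewise defined after the data had been seen, had a median pileup of 36 and a median fold of 7.73. Near a gene end lay 5.16% (4.58 to 5.79) of them, against 13.1% before absence at days 8 and 10 was required. Kept regions were listed at 86.5% at day 8 and 89.2% at day 10, and 66.4% of them were in every list of the series.

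**Figure D3:**
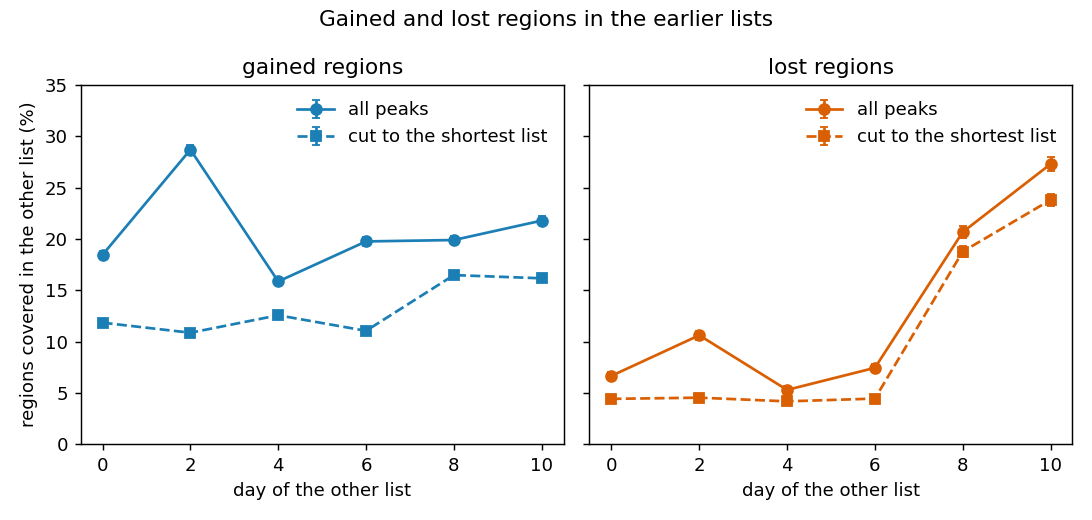
Share of gained (left) and lost (right) regions that are covered in the list of each earlier day (vertical axis, percent; horizontal axis, day), with 95% binomial intervals, for all peaks and for lists cut to the shortest length. Lost regions are covered at 5.29% at day 4 and 27.3% at day 10; gained regions stay between 15.9% and 28.7% with all peaks.

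As listed, days 8 and 10 shared more peaks with iPSC than day 12 did. Each comparison with iPSC uses the same iPSC list. At 31865 peaks each, 46.7% (46.2 to 47.3) of day 8 peaks, 46.7% (46.1 to 47.2) of day 10 peaks and 38.6% (38.0 to 39.1) of day 12 peaks were in the iPSC list, and in the reverse direction 45.8%, 46.2% and 37.1% of iPSC peaks. The lists of days 0 to 6 gave 34.1% (day 2) to 38.1% (day 4) in the first direction. At this length the day 12 list was used whole, down to a pileup of 3. Its peaks covered 0.381% of the span of the chromosomes, against 0.588% at day 8 and 0.690% at day 10. The part of depth and peak width in the lower day 12 share was not tested. Among the 10000 best-scored peaks of each day, 85.2%, 82.1% and 73.5% (72.6 to 74.4) were found among all iPSC peaks. The lowest pileup among these 10000 peaks was 17, 22 and 8, in the same order, and the sets therefore still differ in depth. The same 10000 day 12 peaks were found at 90.0% (89.4 to 90.5) in the day 10 list. Day 12 peaks with a pileup of at least 11 were found at 75.7% in iPSC and 93.0% at day 10.

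Promoter windows of the classes differed in CpG and motif content. RefSeq windows from 250 bases before to 50 after the start were available for 17492 genes, none of them on chromosome 18. Of 21263 windows, 7858 were covered at both stages, 3305 in iPSC alone, 455 at day 12 alone and 9645 at neither. The median number of CpG was 23, 17, 22 and 3 in these 4 sets. The GC box was found in 74.3% (73.4 to 75.3) of kept, 56.9% (55.2 to 58.6) of gained, 64.0% (59.4 to 68.4) of lost and 18.8% of uncovered windows, against 46.2% of all. An ETS site (CCGGAAG) was in 21.5% of kept, 11.2% of gained and 14.3% of lost windows, against 11.6% of all. TATAAA was in 4.90%, 7.93% and 8.79%, against 12.6% of all and 20.7% of uncovered windows. The POU octamer core was in 3.30% of kept, 3.93% of gained and 3.74% of lost windows, against 4.23% of all, and the 3 intervals overlap.

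Gene ends were listed more often in iPSC than at day 12 as deposited, and less often at scaled depth. Of 21887 protein-coding genes, 9705 (44.3%) had a covered end at day 12 and 12832 (58.6%) in iPSC, but 7605 (34.7%) in iPSC at scaled depth. Both lists covered an end of 9202 genes (42.0%). An end was covered in iPSC and not at day 12 for 3630 genes (16.6%), and the reverse held for 503 (2.30%). The best peak at the end lay in a kept region for 183 of the 3630 and for 9 of the 503, since the peak of the other list there stopped short of the 1 kb. These became 2479 and 1022 genes at equal list length and 1013 and 3113 at scaled depth. This net direction thus also turned, under the setting that is strict on iPSC peaks. Among 14 housekeeping genes, 9 had a covered end at day 12, 13 in iPSC and 10 at scaled depth. Ends were covered for 55.0% of all genes at day 0, 55.2% at day 8 and 56.4% at day 10. Gene ends of single genes and of gene lists below are to be read against the shares over all genes given here.

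The core pluripotency factors already had open elements at day 12, but not all had an open start. Pou5f1, the central factor of pluripotency, had 3 kept regions, 1 gained and 0 lost. The region over its start (chr17:35503637-35506057) had a pileup of 72 and a fold of 6.29 at day 12 and 866 and 5.27 in iPSC, and it was also listed at days 8 and 10. The local background there was 10.6 at day 12, far above the 0.248 of the list, and 164 in iPSC. Reads of the gene and of the OG2 transgene cannot be told apart, so levels at Pou5f1 are not set against other genes. Zfp42, the Rex1 gene and a classic marker of stem cells, had a kept region over its start with a pileup of 23 and a fold of 9.50 at day 12 and 85 and 6.68 in iPSC, listed otherwise only at days 8 and 10. Its window is the first of the sequences above.

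Nanog, the homeobox factor that stabilises the naive state, had its start covered in iPSC alone of the 8 lists. That region (chr6:122706968-122707532) had a pileup of 71 and a fold of 3.39 in iPSC over a local background of 20.2, and it did not pass at scaled depth. Upstream, at chr6:122702371-122703495, stood a kept region with a pileup of 24 and a fold of 12.04 at day 12 and 127 and 6.19 in iPSC, which was listed in all 8 lists. Nanog had 5 gained and 0 lost regions in all. Sox2, the partner of Pou5f1, had its end covered in iPSC with a pileup of 114 and a fold of 4.12. This region was absent from the day 12 list although days 0, 2, 6 and 8 had it. Of the 8 lists, only that of day 12 covered no end of Sox2. Tdgf1, the Nodal coreceptor Cripto, had a gained region from just upstream of its start with a pileup of 82 and a fold of 5.14, in no other list, which passed at scaled depth.

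At Nr5a2, a nuclear receptor that can sustain Pou5f1 expression, the lists covered different starts. The outer start had a day 12 region (chr1:136960513-136960705) with a pileup of 7 and a fold of 5.55, listed also at days 8 and 10 and absent in iPSC. The inner start, downstream of it within the gene, had an iPSC region (chr1:136952870-136954170) with a pileup of 92 and a fold of 4.55, in no other list, which passed at scaled depth. Nr5a2 had 4 kept, 13 gained and 4 lost regions, 2 of them supported gained and 1 supported lost.

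At Klf4, a Krüppel-like factor of both fibroblasts and naive cells, the start was lost. The region (chr4:55532457-55533095) had a pileup of 20 and a fold of 6.59 at day 12 and was listed at days 0, 2, 6, 8 and 10, but not in iPSC. The nearest iPSC peak, inside the gene, had a pileup of 95 over a local background of 23.4, and the part of that raised background in the missing start peak was not tested. Klf4 had 2 kept, 5 gained and 7 lost regions, 3 of the lost supported. The region 68121 bp downstream of the start was kept, with a pileup of 7 at day 12 and 112 in iPSC, and was listed otherwise at days 8 and 10 only.

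Esrrb, an orphan nuclear receptor of the naive network, gathered the largest gain of its list. It had 14 gained, 1 kept and 1 lost region, and 11 gained and 1 lost at equal list length. Supported gained regions numbered 4, all inside the gene, with pileups of 43, 44, 89 and 86 and folds of 8.83, 4.57, 3.48 and 3.56. Toward the gene's far end, at 136168 to 143417 bp from the first start, 4 gained regions stood over local backgrounds of 22.7 to 32.2. The kept region at 109701 bp had a pileup of 20 and a fold of 8.47 at day 12 and 58 and 3.97 in iPSC.

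**Figure D4:**
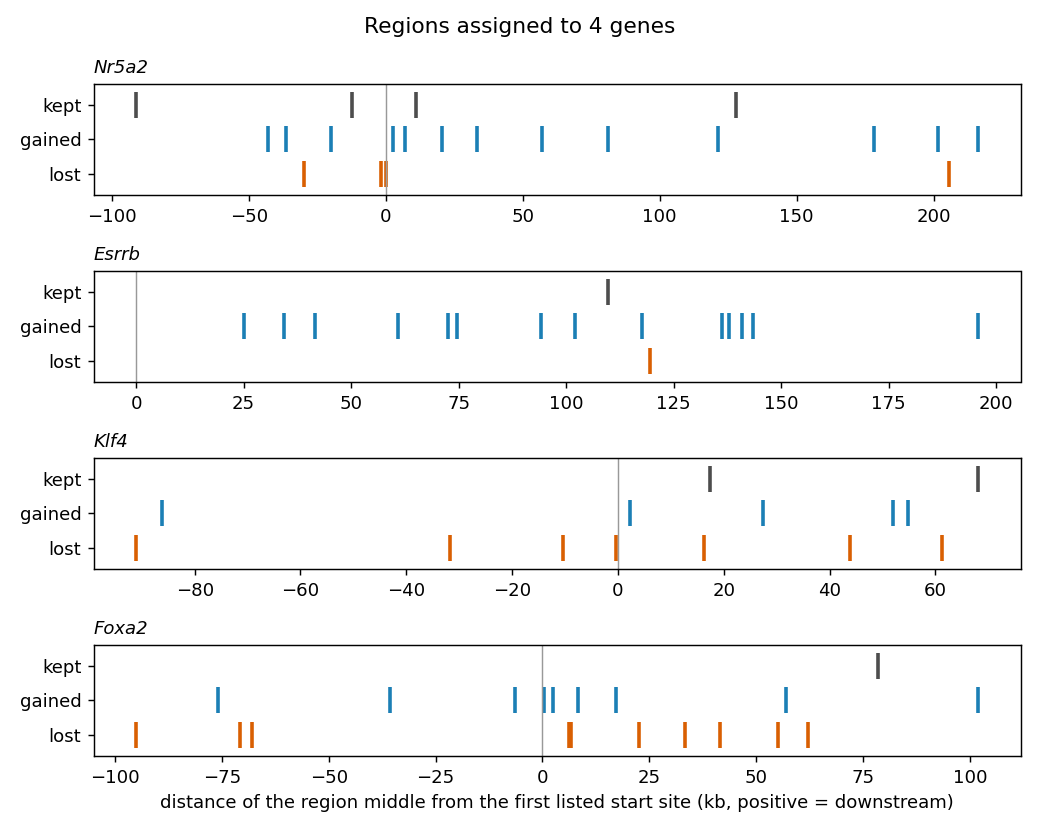
Middles of kept, gained and lost regions assigned to Nr5a2, Esrrb, Klf4 and Foxa2 (rows) by distance from the first listed start site (horizontal axis, kb, positive downstream). Esrrb has 14 gained marks and 1 lost mark, Foxa2 10 lost and 9 gained.

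The 16 naive pluripotency genes together had 26 kept, 109 gained and 38 lost regions. More gained than lost regions were assigned to 15 of 16, where 42.1% of all genes had more gained and 12.2% more lost. At equal list length it was 12 with more gained and 2 with more lost, against 25.2% and 21.2% of all genes, with 65 gained and 39 lost regions. Supported gained regions stood at 11 of the 16 genes (68.8%), against 14.5% of all genes, and supported lost regions at 6 (37.5%), against 10.8%. The median of gained minus lost regions was 4 per gene, 1 at equal list length, and 0 for all genes. Genes of this list gather many regions of every class, and length was not matched. Tet2, which oxidises methylated cytosine, had 12 gained and 3 lost regions and 4 supported gained ones. Prdm14, a factor of naive and primordial germ cells, had 8 gained and 2 lost, and Tbx3, a T-box factor, 9 gained and 5 lost, 4 of them supported. Klf5 had 10 gained and 6 lost regions, and Fgf4 4 gained and 0 lost. Covered ends numbered 10 of 16 at day 12, 12 in iPSC and 8 at scaled depth.

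The 18 late pluripotency and germline genes had 18 kept, 41 gained and 16 lost regions. More gained than lost regions were assigned to 13, against 42.1% of all genes, and at equal list length to 7, with more lost at 4. Of the 18 genes, 9 had a covered end at day 12 and 16 in iPSC, but 5 at scaled depth, so the direction of the ends turned. An end was covered in iPSC and not at day 12 for 8 genes, against 16.6% of all genes. These were Dppa2, Dppa4, Sall4, Dnmt3l, Ddx4, Mael and Sycp3, with a gained region there that did not pass at scaled depth, and Gdf3, where the region was kept. Ddx4, Mael and Sycp3 are genes of germ cells and meiosis, and Dppa2 and Dppa4 encode paired chromatin factors. Dppa3, a maternal factor also known as Stella, was the reverse: a day 12 region with a pileup of 7 and a fold of 5.11 lay at its end, in no other list. A gained region nearby at Dppa3 had a pileup of 63, in no other list, and passed at scaled depth. Ends of Dppa5a, Utf1 and L1td1 were covered at both stages. Sall1 had 10 gained and 2 lost regions and Tdh, a threonine dehydrogenase gene of mouse stem cells, 4 and 0. Lin28a had 2 gained regions and no covered end in either list.

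Genes of formative and primed pluripotency, the states that follow the naive one, had 4 kept, 39 gained and 13 lost regions over 11 genes, 12 of the gained at Foxd3. At equal list length they had 26 gained and 13 lost, with more gained at 6 genes and more lost at 3, against 25.2% and 21.2% of all genes. Foxd3, a forkhead repressor, had 0 kept or lost regions beside these 12 gained, 4 of them supported, with pileups of 68, 42, 64 and 56. All of the 4 stood in no other list. Otx2 had 6 gained and 2 lost regions and Lef1 7 and 0. Covered ends numbered 3 at day 12, 9 in iPSC and 1 at scaled depth. Of 8 genes of the 2-cell-like state, 2 had lost regions (Duxf3 2, Tcstv3 1), and 0 regions were kept or gained.

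Genes of neural cells, of trophoblast and of the Nodal pathway also gathered gained regions. The 10 neural genes had 7 kept, 37 gained and 6 lost regions, and 8 had more gained at equal list length, against 25.2% of all genes. Sox1, an early neural factor, had 10 gained and 1 lost, and Pax6 7 and 1 with 3 supported gained. The 10 trophoblast genes had 39 gained and 11 lost regions, with Tfap2c at 12 gained and 0 kept or lost. At equal list length the trophoblast genes had 25 gained and 13 lost, with more gained at 4 genes and more lost at 2. Supported lost regions stood at 3 of the 10 and supported gained regions at 5, against 10.8% and 14.5% of all genes. Tfap2c, which encodes AP-2 gamma and is also expressed in naive cells, had 3 supported gained regions with pileups of 48, 38 and 68. The 8 Nodal pathway genes had 19 gained and 5 lost regions, and 12 and 5 at equal list length, with more gained at 6 genes. Of the 5 lost regions 0 were supported (0 to 52.2%), an interval that holds the 20.6% over all genes. Supported gained regions numbered 6 and stood at 3 of the 8 genes, against 14.5% of all genes. Inhbb, an activin subunit, had 4 of these 6. Lefty1, a Nodal antagonist and target, had a supported gained region with a pileup of 57 and a fold of 8.91, and its end was kept. Nodal had 2 gained regions near its end, the upstream one with a pileup of 52 in iPSC alone of the 8 lists.

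Extraembryonic endoderm genes had more lost than gained regions. The 14 genes had 15 kept, 45 gained and 54 lost regions, and at equal list length 18 gained and 57 lost. More lost than gained regions were assigned to 9 genes as deposited and to 11 at equal length, against 12.2% and 21.2% of all genes. Of their lost regions 30 of 54 (55.6%, 41.4 to 69.1) were supported, against 20.6% (19.9 to 21.2) over all genes. Supported lost regions stood at 11 of 14 genes (78.6%), against 10.8% of all genes. Supported gained regions stood at 2 (14.3%), near the 14.5% of all genes. With a 20 kb assignment limit 8 of the 14 had more lost and 4 more gained, against 2493 and 8822 of all 21887 genes. Foxa2, a pioneer factor of endoderm, had 10 lost regions, 6 of them supported, beside 9 gained and 1 kept. At the 20 kb limit Foxa2 turned, with 5 gained and 3 lost. The day 12 pileups of its lost regions ran from 7 to 15 and their folds from 4.25 to 9.82. The kept region of Foxa2 had a pileup of 21 at day 12 and 48 in iPSC.

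Sox17, an SRY-box factor of endoderm, had the best-covered lost regions of this list. The strongest (chr1:4537483-4537844) had a pileup of 44 and a fold of 11.5 at day 12, and its neighbour (chr1:4538205-4538620) 29 and 7.60. Both were listed at days 8 and 10, in none of days 0 to 6, and not in iPSC. A region nearer the gene (chr1:4473838-4474207), with a pileup of 15, had the same pattern. Sox17 also had a kept region at the gene, with a pileup of 20 at day 12 and 67 in iPSC, of which only the iPSC peak came within 1 kb of the gene's end. Gata4, a zinc finger factor of primitive endoderm and heart, had 5 lost regions, 2 supported with pileups of 18 each, beside 2 kept and 2 gained. Cubn, the gene of the endocytic receptor cubilin of visceral endoderm, had 7 lost regions, 5 supported, the strongest with a pileup of 32 and a fold of 13.98. Pdgfra, a growth factor receptor of primitive endoderm and mesenchyme, had 3 supported lost regions. Hnf4a lost the region at its end, with a pileup of 7 at day 12, listed at days 8 and 10. As deposited, 4 of the 14 genes went the other way by count. These were Gata6 (6 gained and 1 lost), Lamb1 (6 and 3), Col4a1 (4 and 1) and Cited1 (1 and 0). At equal length Gata6 and Col4a1 had 2 and 1 each, Lamb1 0 and 4, and Cited1 0 and 1. With the 20 kb limit Gata6 had 1 and 1. The end of Gata6 was kept. The day 8 list covered an end of 8 of the 14 genes, the day 10 list 11, the day 12 list 5 and the iPSC list 9, or 2 at scaled depth. Over all genes these shares were 55.2%, 56.4%, 44.3% and 58.6%, or 34.7% at scaled depth, so day 12 was lowest of the 4 lists there too. Foxa2 and Pdgfra were among the genes with a gained region at an end. Whether a separate group of endoderm cells or all cells carried these regions at day 12 cannot be told apart in bulk samples.

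**Figure D5:**
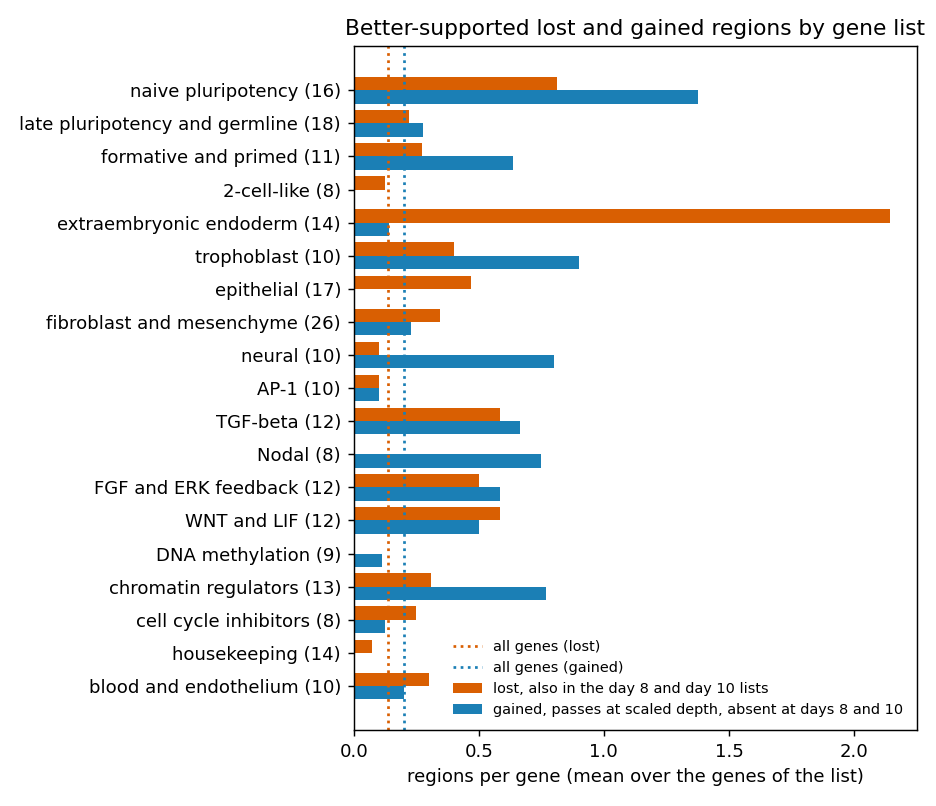
Mean number of supported lost (also at days 8 and 10) and supported gained (pass at scaled depth, absent at days 8 and 10) regions per gene (horizontal axis) for 19 gene lists (rows, number of genes in brackets); dotted lines are the means over all genes. Extraembryonic endoderm genes have 2.14 supported lost regions per gene, against 0.135 over all genes, and naive pluripotency genes 1.38 supported gained, against 0.200.

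At equal list length, the excess of gained regions shrank at epithelial genes and turned in the total of the fibroblast genes, much of it at Runx1. All genes together then had 17626 gained and 15759 lost. The 17 epithelial genes had 10 kept, 37 gained and 17 lost regions, and 21 gained and 19 lost at equal length. Of the lost regions 8 (47.1%, 23.0 to 72.2) were supported, against 20.6% over all genes. Supported gained regions stood at 0 of the 17 genes, against 14.5% of all genes. Ends of Cdh1, the E-cadherin gene, and Epcam, an adhesion molecule gene, were kept. The Cdh1 end had a pileup of 15 at day 12 and 54 in iPSC, and the Epcam end 13 and 14. Ends were covered for 13 genes in the day 8 list, 14 in the day 10 list, 6 in the day 12 list and 13 in iPSC, or 4 at scaled depth. The same shares over all genes were 55.2%, 56.4%, 44.3% and 58.6%, or 34.7% at scaled depth. The 26 fibroblast and mesenchyme genes had 13 kept, 56 gained and 38 lost regions, which became 30 gained and 41 lost at equal length. Of these genes 8 then had more gained and 6 more lost. The list median of gained minus lost was 0 there. Runx1 had 8 lost and 2 gained regions as deposited, 4 of the lost supported. At equal length Runx1 held 10 of the 41 lost and 1 of the 30 gained regions. Covered ends numbered 22 at day 0, 7 at day 12, 16 in iPSC and 3 at scaled depth, against 55.0%, 44.3%, 58.6% and 34.7% of all genes.

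Of 8 fibroblast markers, ends of Col1a1 and Twist1 were covered at day 12, and ends of Col1a1, Col1a2, Thy1, Prrx1, Twist1 and Pdgfrb in iPSC. None of the 8 was covered in iPSC at scaled depth. The iPSC were grown on feeders, which are fibroblasts as a rule, and signal of feeders and of iPSC cannot be told apart in this list. Of 7 pluripotency markers, ends were covered for 3 at day 12 (Pou5f1, Zfp42 and Dppa5a), 6 in iPSC and 5 at scaled depth. Of 3 blood markers 0 were covered at day 12 and 1 (Tal1) in iPSC.

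The lists of signalling and chromatin genes are read against all genes, which had 31923 gained and 14406 lost regions as deposited and 17626 and 15759 at equal list length. In the WNT and LIF list, 12 genes had 60 gained and 24 lost regions, but at equal length 4 had more gained and 6 more lost, with a mean of 0.58 and a median of −0.5 gained minus lost regions per gene. Tcf7l1, a repressor downstream of WNT, had 17 gained and 0 lost regions. Tcf7 lost its covered end, and Lifr, the LIF receptor gene, had 6 lost and 4 gained. FGF and ERK feedback genes had 61 gained and 18 lost regions, with Spred2, an inhibitor of ERK signalling, at 15 and 2. At equal length these were 36 and 21, with more gained at 8 of 12 genes and more lost at 2. The TGF-beta list had 54 and 16, with Smad6, an inhibitory Smad, at 11 and 0, and 29 and 18 at equal length. AP-1 genes had 16 kept and 7 lost regions, so that 69.6% (47.1 to 86.8) of their day 12 regions were kept, against 47.0% over all genes, and ends of 8 of 10 were covered at both stages. DNA methylation genes had 15 gained and 2 lost regions, 9 of the gained at Tet1, and 6 and 2 at equal length. Chromatin regulators had 62 gained and 17 lost regions, and 30 and 18 at equal length. Among them Arid1b, a BAF subunit, had 25 gained and 5 lost regions, and Eed, a subunit of Polycomb complex PRC2, 8 and 0 with 3 supported. Cell cycle inhibitors had 14 gained and 4 lost regions, and 8 and 4 at equal length, and Cdkn1c, an imprinted gene, lost its covered end. Blood and endothelium genes had 22 gained and 10 lost regions as deposited, and 9 and 11 at equal length.

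Over all genes at equal list length, Tenm4, a teneurin gene, had the largest excess of gained regions, with 21 gained and 4 lost. It was followed by Pde4d (24 and 9), Tenm3 (19 and 4), Ptprg (19 and 5), Tcf7l1 (15 and 1), Dlgap1, Etl4, Mast4, Magi1 and Esrrb. The largest excess of lost regions was at Fhit (7 gained and 28 lost) and Macrod2 (11 and 29), with Gas8, Gpc5, Fstl4, Lsamp, Magi2, Rarb and Stard13 also among the leading genes. At Fhit and Macrod2, only 3 and 4 of the lost regions were supported, and at Gas8 1 of 12. Many of them have long spans, which offer more room for regions. Counting only supported lost regions, a choice made after the values were seen, Foxa2, Foxq1, Shroom3, Zbtb7c and Zfhx3 led with 6 each. As deposited, Zfhx3 (24 gained and 9 lost), Zbtb7c (17 and 10) and Shroom3 (11 and 8) nonetheless had more gained than lost regions in all. At equal length these were 11 and 9, 10 and 11, and 7 and 8. Foxq1, a forkhead factor of epithelia and endoderm, had 9 lost regions and 1 gained. Isx, an intestinal homeobox gene, had 7 lost, 5 of them supported, and 2 gained. Auts2 and Immp2l had 8 supported gained regions each.

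Among ends covered at day 12 and not in iPSC, the leading scores ran from 160 to 397. The score is the whole part of 10 times −log10 q. Median day 12 scores were 75 for kept and 24 for lost regions. The lists differ in depth, so day 12 and iPSC scores are not set against each other. Cyp3a13, a cytochrome P450 gene, led with 397, and others were Best3 (275), Pld3 and 2310022A10Rik (207, 1 peak between neighbouring genes), Fkbp5 (196), Ext1 (172), Sdcbp2 (163) and Gse1 (160). Each of these ends was also covered at days 8 and 10. Cyp3a13, Best3 and Sdcbp2 had no covered end at days 0 to 6. In the reverse direction Kcnt2, a potassium channel gene, led with 1209, and others with a gained region there were Syne1 (676), Nsmce1 (647), Gipc2 (622) and Cdhr1 (618). At Gemin2 (952), Pcmtd1 (728), Kcnh6 (666), Mnat1 (653) and 9430038I01Rik (636), and at Ccdc50 (271) in the first direction, the peak lay in a kept region, whose peak in the other list did not come within 1 kb of the end.

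Single regions of either kind can be strong. The lost region of highest score (chr11:30888298-30888518), inside Gpr75, had a pileup of 289 and a fold of 44.5 at day 12 and was listed at days 8 and 10. Next came a region 17542 bp from Arhgap20 (chr9:51747578-51747809) with 172 and 45.2 and one inside Chl1 (chr6:103649065-103649285) with 160 and 41.4. The others were a region 12251 bp from Ifngr2 and one inside Stap2, and all 5 were listed at days 8 and 10. The gained region of highest score (chr6:146855268-146855764), inside Smco2, had a pileup of 182 and a fold of 21.4 in iPSC and was listed at days 8 and 10. One inside Tmbim4 (chr10:120216815-120217314) had 177 and 16.8 and was in no other list. The best kept region (chr2:98666570-98667313) had pileups of 3541 at day 12 and 8307 in iPSC, with no protein-coding gene within 100 kb, and its local background was 151 at day 12. Kept regions near Axin2 (60863 bp) and Gtpbp4 (15570 bp) had pileups of 390 and 455 at day 12, over raised local backgrounds of 9.53 and 7.53. The 5 best kept regions stood in all 8 lists. Those at chr14:19415728-19419361 and chr9:3000087-3004760 also had raised local backgrounds, of 27.1 and 18.1 at day 12, against 0.248 for the list. No filter for regions of raised background was applied here. Whether the high pileups of such regions reflect open chromatin was not tested.

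The share of iPSC regions that were already listed at day 12 varied by chromosome. It was lowest on chromosome 18 (21.4%, 19.6 to 23.2) and chromosome 1 (22.8%, 21.5 to 24.2), and among the autosomes highest on chromosome 19 (32.4%, 29.9 to 35.0) and chromosome 7 (30.9%, 29.3 to 32.6). On X it was 29.2% (26.6 to 32.0), within the range of the autosomes. Chromosome Y held 39 regions in all, with 7 kept.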

How the data were processed

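ATAC-seq peaks of 2 stages were compared from lists the authors deposited, 1 for each stage. The submitters' processing notes name build mm10, MACS2 2.1.2, Bowtie2 2.2.5, fastp 0.20.1, deepTools 3.4.3 and SAMtools. Not given in the sources used here are their order, settings, any Tn5 shift and how samples were combined. The lists as deposited give per peak a score, a fold (ratio) and −log10 p and q values. The score equals the whole part of 10 times −log10 q for at least 99.99% of peaks.

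Pileups were recovered from the deposited fold and −log10 p as a Poisson tail, within 0.001 for 100% of day 12 and iPSC peaks, and the procedure was tested on simulated data. Python 3.11.15, pandas 2.3.3 and SciPy 1.17.1 were used. On other sequences, 50 day 12 and 52 iPSC peaks were left out. Genes came from RefSeq on GRCm38.p6, and regions were assigned to the nearest protein-coding gene within 100 kb. Of 239 listed genes 238 were in the table.

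The members and gene lists were chosen with earlier results of these data known. Named genes were a fixed set, up to 3 per list by gained minus lost regions, the 10 with the largest excess each way, and the best-scored regions and gene ends; others from the lists were named after their values were seen. A few genes that the rule takes in are not reported here. Alternatives were equal list length, the better-scored 50% of each list, −log10 q of at least 3, scaled depth, 2 stricter overlaps, a 2.5 kb end window, a 20 kb limit and earlier lists of equal length. Supported classes, the 10000 best peaks and a pileup of at least 11 were added after seeing the data.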

Additional observations from a re-analysis of the deposited data

How the results depend on the processing

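No paired analysis was possible because the deposited lists hold stages, not samples, and for the same reason no sample could be left out. Kept regions near a gene end outnumbered, as a share, those of the other classes under every alternative run, with 60.4% as deposited, 63.8% at equal list length, 71.1% for the better-scored part of each list, 65.2% at −log10 q of at least 3, 69.2% at scaled depth, 61.6% for the stricter overlap, 61.3% for summits and 64.9% with a 2.5 kb window. In the same order lost regions had 5.10%, 7.09%, 13.9%, 7.03%, 14.05%, 5.81%, 5.53% and 8.82%, and gained regions outside the overlap settings 12.7%, 13.9%, 17.0%, 13.85%, 13.1% and 18.2%. Gained regions numbered 20046 at equal length, 16003 in the better-scored part and 7879 at scaled depth. Lost regions numbered 7029 in the better-scored part, 8588 at the stricter q and 3292 with support at days 8 and 10, and supported gained regions 5330. Kept regions numbered 8730 in the better-scored part and 8179 at scaled depth. The kept share of iPSC regions was 26.8% as deposited and 37.1%, 35.3%, 25.3%, 50.9%, 25.7% and 26.1% at equal length, better-scored part, stricter q, scaled depth, stricter overlap and summits. That of day 12 regions was 42.3%, then 37.6%, 55.4%, 57.2%, 25.96%, 40.6% and 41.2%, with 75.7% for pileups of at least 11 and 73.5% for the 10000 best peaks. Genes with an end covered at day 12 alone numbered 1022 at equal length, 905 in the better-scored part and 3113 at scaled depth, and those in iPSC alone 1013 at scaled depth. Per gene, gained minus lost regions turned at equal length to −0.42 for fibroblast and mesenchyme genes and −0.20 for blood and endothelium genes; that of housekeeping genes went to 0, the means of the other 16 lists kept their sign there, and all 19 did with a 20 kb limit. With every list cut to the shortest length, 14 shares of gained and lost regions in the earlier lists moved, all but 2 of them downward, for example to 23.8% of lost regions at day 10 and 10.9% of gained regions at day 2. Fewer iPSC peaks enter at equal length and scaled depth by construction, and equal length also forces near-equal totals of gained and lost regions. At a background pileup of 0.248, depth limits what absence from the day 12 list can show.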
